A study of Mus musculus with 20 samples.

Results

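Transcripts of the matrix metalloproteinases (MMPs), the ADAM and ADAMTS proteases and the tissue inhibitors of metalloproteinases (TIMPs) were followed in liver and white adipose tissue (WAT) of mice without functional RORα. Members were all probes whose gene name on the array begins with Mmp, Adam, Adamts or Timp followed directly by a number. The rule took 123 of 41174 probes and 70 of 28786 gene names, namely 28 Adam, 17 Adamts, 21 Mmp and 4 Timp genes. Testing required the scanner software's flag for a signal well above background on at least 4 of a tissue's 10 arrays, so a probe could enter through 1 genotype alone. In WAT 97 probes of 62 genes passed, in liver 52 probes of 37 genes, and all of the latter had also passed in WAT. The other 26 probes passed in neither tissue, and 8 genes had no probe that passed: Adam6, Adam22, Adam24, Adam29, Adamts13, Mmp1a, Mmp20 and Mmp21.

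The study compared wild-type (WT) males with staggerer males (sg/sg, written RORasg/sg in the labels), which carry the spontaneous staggerer deletion on both copies of Rora and so lack functional RORα, a nuclear receptor. All mice were on the C57BL/6 strain, were 5 months old and had received a 35% fat diet for 6 weeks, so no group on standard chow was part of the comparison. There were 4 groups of 5 arrays, WT liver, sg/sg liver, WT WAT and sg/sg WAT, each array hybridised with Cy3-labelled RNA of 1 sample. The deletion is present in every cell, the fat depot is not named, and the labels do not tie a liver array to a WAT array of the same mouse.

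MMPs are zinc-dependent endopeptidases that cut extracellular matrix, most of them secreted as inactive precursors and a few anchored to the cell surface. ADAMs are membrane proteins, many of which shed the outer parts of other membrane proteins such as TNF, and several members of the family act only in sperm. ADAMTS proteases are secreted and process procollagens and proteoglycans, and TIMPs bind and block the active enzymes. In fat, these enzymes are known for remodelling the matrix around growing adipocytes, and macrophages that enter obese fat are a known source of several of them.

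The results turn on probes of Timp1 and Mmp12, and on a run of MMP genes that share a short stretch of chromosome 9. The 3 Timp1 probes are printed because they gave the same answer in WAT but not in liver. Positions are those of the array design on build mm7, forward strand, and each probe has 60 bases.
Timp1 probe A_51_P512384, chrX:19305929-19305988: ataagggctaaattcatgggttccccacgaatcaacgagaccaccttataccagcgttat
Timp1 probe A_51_P512379, chrX:19305989-19306238: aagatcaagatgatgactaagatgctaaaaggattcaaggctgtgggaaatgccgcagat
Timp1 probe A_52_P87713, chrX:19307699-19307758: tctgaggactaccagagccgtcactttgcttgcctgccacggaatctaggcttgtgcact
Mmp12 probe A_51_P313674, chr9:7352125-7352640: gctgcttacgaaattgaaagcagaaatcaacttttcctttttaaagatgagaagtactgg
The genomic span of the Mmp12 probe and of the Timp1 probe A_51_P512379 is longer than the probe itself, so both cross an intron. The Timp1 probe A_52_P87713 lies downstream of the other Timp1 probes.

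Of the chromosome 9 genes, Mmp12, Mmp3 and Mmp10 fell in WAT of sg/sg mice, and the 250 bases before their RefSeq starts (build GRCm38.p6) each held the motif TGANTCA, in capitals here. The motif reads the same on both strands and is the textbook recognition site of AP-1 factors, which are known to act on MMP promoters.
Mmp12, chr9:7347124-7347373: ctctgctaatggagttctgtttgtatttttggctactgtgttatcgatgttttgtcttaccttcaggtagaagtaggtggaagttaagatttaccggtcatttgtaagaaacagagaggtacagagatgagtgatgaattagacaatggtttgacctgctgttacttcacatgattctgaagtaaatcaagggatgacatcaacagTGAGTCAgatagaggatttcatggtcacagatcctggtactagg
Mmp3, chr9:7445572-7445821: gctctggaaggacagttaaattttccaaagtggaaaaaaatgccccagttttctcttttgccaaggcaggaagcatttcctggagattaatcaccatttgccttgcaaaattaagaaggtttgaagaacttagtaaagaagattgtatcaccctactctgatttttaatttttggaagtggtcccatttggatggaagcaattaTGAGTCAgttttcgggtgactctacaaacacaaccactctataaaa
Mmp10, chr9:7502092-7502341: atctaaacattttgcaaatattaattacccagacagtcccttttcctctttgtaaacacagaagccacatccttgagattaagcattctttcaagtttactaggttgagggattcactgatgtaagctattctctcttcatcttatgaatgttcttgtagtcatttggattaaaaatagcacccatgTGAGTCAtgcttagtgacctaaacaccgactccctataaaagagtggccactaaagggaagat
The match begins 44, 46 and 63 bases before the start of Mmp12, Mmp3 and Mmp10. Among members measured in WAT the motif is also in the windows of the cluster genes Mmp13 and Mmp7 and of Adam25, none of which passed the threshold, and of Adam19, which fell. A second listed start of Mmp12 has no match in its window, nor have Timp1 and Adam8. Of 32851 mouse promoter windows of this length, 6.75% hold the motif. The core of a ROR response element, TAGGTCA, searched on both strands, is in 2.23% of the windows and, among the members, in that of Mmp10. Only 29 of the 62 genes measured in WAT have an entry in the promoter table, so a comparison of shares between members and other genes is void.

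Rora was lower on every sg/sg array than on every WT array in both tissues, with each of its 3 probes. Differences on the log2 scale were -2.72 to -2.75 in WAT and, with the 2 probes above background on all liver arrays, -2.86 and -2.88 in liver, where the other probe was above background on no sg/sg array. Values are log2 intensities minus the array's 75th percentile, which ran from 648 to 1090 intensity units on liver arrays and from 1352 to 2598 on WAT arrays. Between 46 and 58 member probes were well above background on a liver array and between 89 and 107 on a WAT array. Of the 10 WAT arrays, WT replicate 2 and sg/sg replicate 4 stood apart, with median correlations to the other arrays of their group of 0.969 and 0.976 against at least 0.985 for the rest. On sg/sg replicate 4 the probes nearer the 5′ end read low, by more than 1 on the log2 scale in 19.8% of 5381 genes with several probes, against 0.446% to 2.14% on the other WAT arrays. WT replicate 2 carried transcripts known from testis, as given with the ADAMs of the reproductive tract. Liver WT arrays 1 to 4 shared a slide without sg/sg arrays, and only 1 liver slide held both genotypes (WT replicate 5 and sg/sg replicates 1 to 3), whereas each of the 3 WAT slides held both.

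In WT mice most members were higher in WAT than in liver. Of 62 genes, 38 were higher and 7 lower in WAT (72.6% called, against 75.7% of all genes, of which 33.7% were higher and 42% lower, with a median log2 difference of 1.31 against -0.18 over all genes). Tissue and slide cannot be told apart here, since no slide held both tissues. All 4 inhibitors were higher in WAT. Timp4, the inhibitor with the narrowest known expression, averaged 3.36 (SD 1.02, n = 5) in WT WAT and was well above background on none of the WT liver arrays, which makes it at least 437-fold higher in WAT (limma adjusted p = 5.82e-15). Here and below, such a bound takes the dim group's level on each array as whichever is larger, its measured signal or the dimmest signal still flagged well above background, and sets it against the bright group's mean. Timp2 was higher in WAT by 4.74 (SE 0.13), Timp3 by 3.39 (SE 0.17) and Timp1 by 0.86 (SE 0.28, adjusted p = 0.00942). The Timp1 value is that of its brightest probe, A_52_P87713, and the other Timp1 probes, both dim in liver, lay farther apart. Probe A_51_P512384 ran from -1.04 to 0.69 in WT WAT and from -6.26 to -3.40 in WT liver. Probe A_51_P512379 ran from -1.61 to 0.19 in WT WAT and from -7.19 to -4.44 in WT liver.

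Among the proteases, Adam8, a membrane protease known from leukocytes, was higher in WT WAT by 7.84 (SE 0.38), the aggrecanase Adamts5 by 6.36 (SE 0.19) and the gelatinase Mmp2 by 4.78 (SE 0.29). Mmp12 averaged 1.45 (SD 1.08, n = 5) in WT WAT. It was well above background on 1 of 5 WT liver arrays, replicate 2, at -4.02. The summed level of adipocyte markers on that array was 66.8, against 13.0 to 26.3 on the other WT liver arrays. Its summed level of fibroblast markers, 82.3, was also the highest of the WT liver arrays. The macrophage marker sum was 180 on that array, against 151 to 252 on the other WT liver arrays, and the neutrophil sum, 2.46, was the highest. Whether fat tissue in that sample gave the Mmp12 reading was not tested. Mmp12 was above background on no other WT liver array, so a level in WT liver is not given. Mmp3 was at least 57.1-fold higher in WAT, Adamts16 at least 7.44-fold, Adamts8 at least 5.63-fold and Adam12 at least 5.43-fold, as their probes were above background on none of the WT liver arrays. Members lower in WAT and measured in both tissues were Adam25 (-2.50), Adam11 (-1.82), Adam2 (-1.55), Adam21 (-1.14), Mmp15 (-1.13) and Mmp24 (-0.75). Mmp15, a membrane-type MMP, ran from 0.36 to 0.84 in WT liver and from -1.02 to -0.20 in WT WAT, without overlap.

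In WAT of sg/sg mice, 19 of the 62 member genes changed, 7 higher and 12 lower. The strongest decreases were those of Mmp12, Adam8, Mmp3 and Timp1, and the clearest increase was that of Mmp16. Of the 62 genes 30.6% were called, against 23% of all genes measured in WAT. The 7 increases stand beside 13.8% of all genes that rose, and the 12 decreases beside 9.2% that fell. The median log2 difference over the members was -0.19, against 0.09 over all genes. Counted by probe, 31 of 97 were called (32%, against 21.9% of all probes), and 23 of 97 had WT and sg/sg arrays without overlap (23.7%, against 20.8% of all probes). In bulk tissue, fewer cells of a type and less RNA per cell cannot be told apart.

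**Figure D1:**
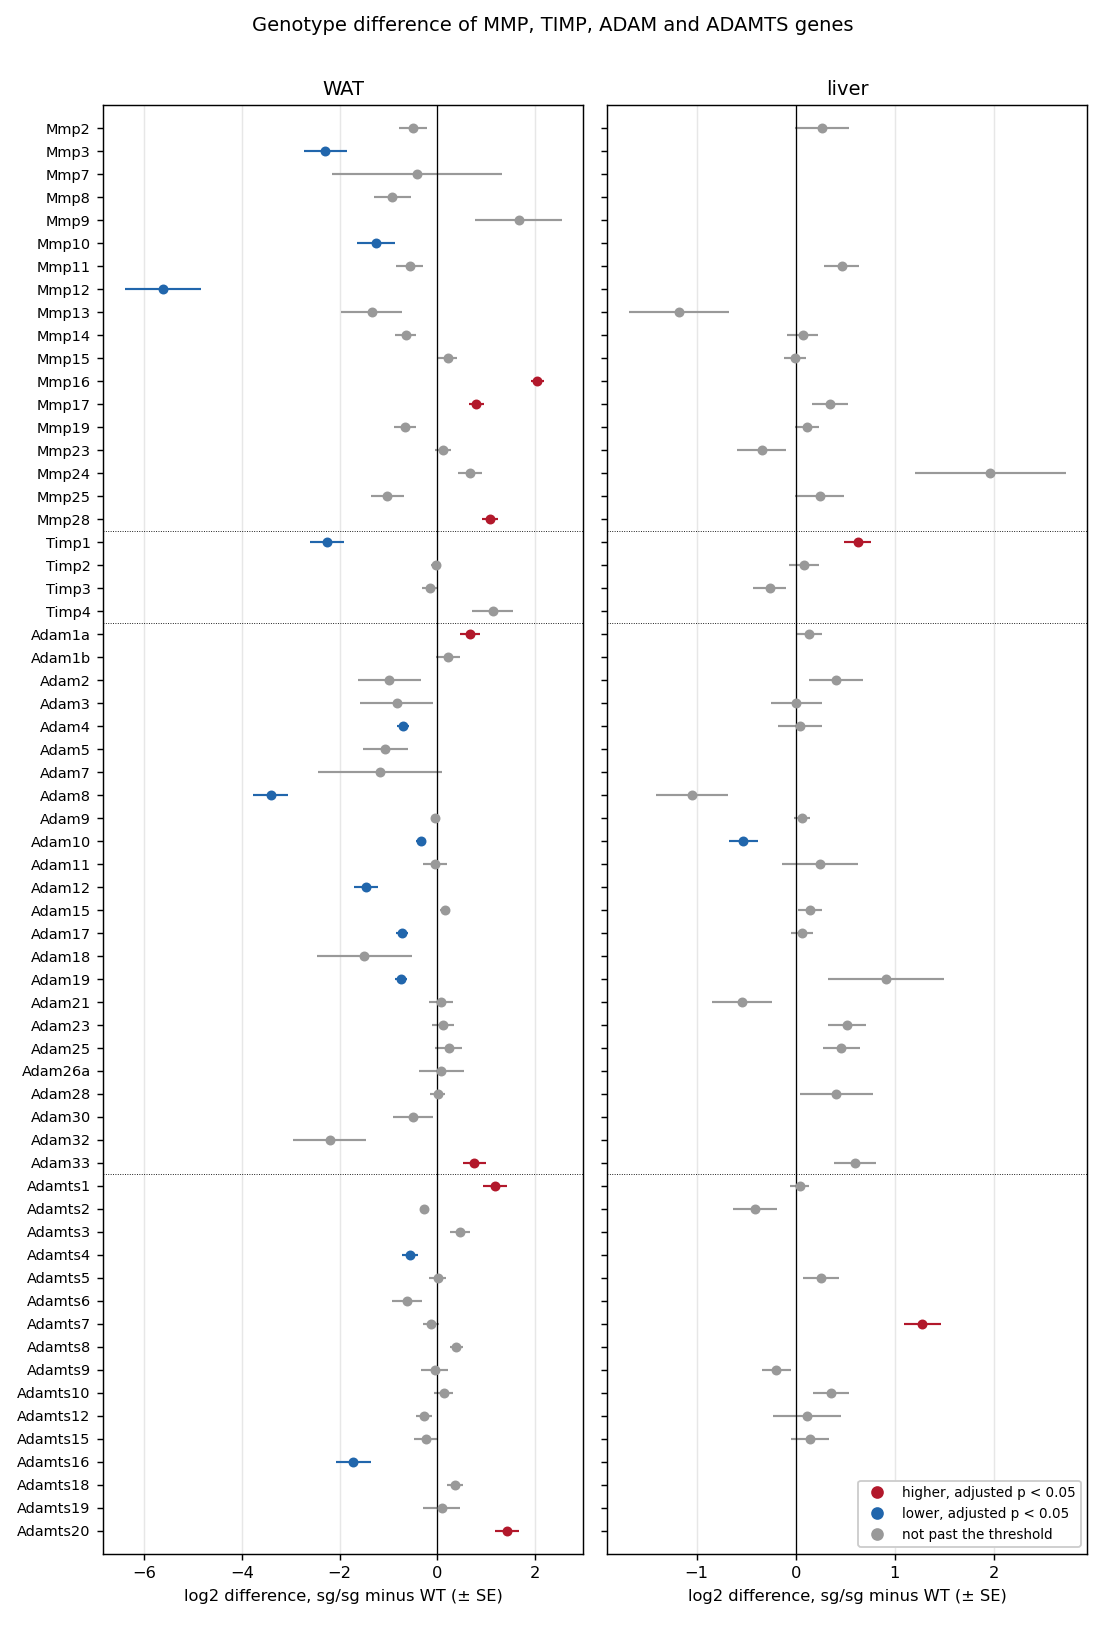
Log2 difference of sg/sg minus WT (± SE, 5 arrays per genotype) of each measured member in WAT (left, 62 genes) and liver (right, 37 genes, on a narrower axis), for the probe with the highest mean in that tissue. Blue and red mark genes lower or higher at a limma adjusted p under 0.05: 12 and 7 in WAT, 1 and 2 in liver, with Mmp12 the farthest from 0 at -5.61.

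Among the MMPs, the largest decreases were those of macrophage elastase and stromelysin 1. Mmp12, macrophage elastase, read 2.02, 3.07, 0.49, 0.70 and 0.97 on the WT arrays and -4.98, -3.78, -4.05, -6.21 and -1.78 on the sg/sg arrays. The highest sg/sg array, replicate 5, was still below the lowest WT array. The difference was -5.61 (SE 0.78, 48.9-fold lower, limma adjusted p = 0.0015), and within the 3 slides it was -6.25, -3.88 and -6.87. Mmp3, stromelysin 1, which cuts proteoglycans and activates other MMPs, read 0.59, 1.98, -0.56, 0.37 and -0.25 on the WT arrays and -1.84, -2.37, -2.22, -1.83 and -1.06 on the sg/sg arrays. The groups did not overlap, and WT replicate 2 was the highest array. Mmp3 fell by 2.29 (SE 0.44, 4.89-fold lower, adjusted p = 0.00592).

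Mmp10, stromelysin 2, was lower by 1.26 (SE 0.39, 2.4-fold, adjusted p = 0.0425), with overlap of the groups and 4 of 5 sg/sg arrays above background. It was called only without WT replicate 3 or sg/sg replicate 5 when single arrays were left out (adjusted p up to 0.0911 otherwise). With another background correction (normexp) its direction turned, to 0.88 (adjusted p = 0.365), and to 0.17 (adjusted p = 0.744) with that correction without sg/sg replicate 4. Mmp7, matrilysin, was not called at -0.41 (SE 1.74, adjusted p = 0.898), as WT replicate 2 read 2.62 and the other WT arrays between -6.05 and -2.39. Mmp11, stromelysin 3, stood at -0.57 (adjusted p = 0.184).

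Mmp12, Mmp3 and Mmp10 lie in a cluster of 8 MMP genes on the array that spans 415 kb of chromosome 9 (mm7). Its other measured members were the collagenases Mmp13 (-1.34, SE 0.62, adjusted p = 0.152) and Mmp8 (-0.92, SE 0.38, adjusted p = 0.108) and Mmp7. Of the 6 measured cluster genes 3 passed the threshold, all lower, beside 9.2% of all genes that fell. Mmp10 is among these, with the limits given above. Mmp7 was at -0.41 with all arrays and at 1.11 (SE 1.23, adjusted p = 0.568) without WT replicate 2, and Mmp13 was at 0.26 with the normexp correction (adjusted p = 0.762). Mmp1a and Mmp20 were above background on none of the WAT arrays.

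Of the 6 membrane-type MMPs, 2 rose, beside 13.8% of all genes that rose. Mmp16 (MT3-MMP) read -6.96, -7.10, -7.25, -6.75 and -7.20 on the WT arrays and -4.86, -5.11, -4.74, -5.15 and -5.15 on the sg/sg arrays. These groups were far apart relative to their spread, and all 10 arrays were above background. The increase was 2.05 (SE 0.13, 4.15-fold, adjusted p = 7.08e-05), but the probe is dim and stands on a transcript without a RefSeq symbol, and the other Mmp16 probe was above background on no array. Under normexp the difference was 1.82 (adjusted p = 0.12), and with that correction without sg/sg replicate 4 it was 1.23 (adjusted p = 0.0147). Mmp17 (MT4-MMP), which is held by a lipid anchor, rose by 0.80 (SE 0.15, 1.74-fold, adjusted p = 0.00481) without overlap, and its second probe by 0.74 (adjusted p = 0.0309).

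Mmp14 (MT1-MMP), which activates pro-MMP2 and is the best-known pericellular collagenase of fat, ran from 3.17 to 4.28 in WT and from 2.66 to 3.34 in sg/sg mice. Its difference was -0.64 (SE 0.21, adjusted p = 0.0562) with the bright probe, -0.95 (SE 0.27, adjusted p = 0.0308) with the dimmer one, and -0.76 (adjusted p = 0.0379) with the bright probe once WT replicate 4 was left out. The gelatinase Mmp2 stood at -0.49 (SE 0.29, adjusted p = 0.254). Mmp9, the other gelatinase, stood at 1.67 (SE 0.88, adjusted p = 0.209), set by sg/sg replicate 3 at 2.43 while the other 9 arrays lay between -3.93 and -1.58.

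Mmp28, epilysin, rose by 1.09 (SE 0.16, 2.12-fold, adjusted p = 0.00196), from -3.28 to -2.71 on the WT arrays to -2.18 to -1.52 on the sg/sg arrays. Its second probe stood at 0.38 (SE 0.17, adjusted p = 0.145), and a fit of all 20 arrays, which pools the spread of both tissues, gave Mmp28 an adjusted p of 0.223. Mmp19, an MMP of vessels and leukocytes, ran from -0.87 to -0.26 in WT and read -1.67, -1.35, -1.53, -0.47 and -1.48 in sg/sg mice. Replicate 4 was the one sg/sg array inside the WT range. The difference of Mmp19 was -0.66 (adjusted p = 0.058), and -0.87 (adjusted p = 0.00238) without sg/sg replicate 4.

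**Figure D2:**
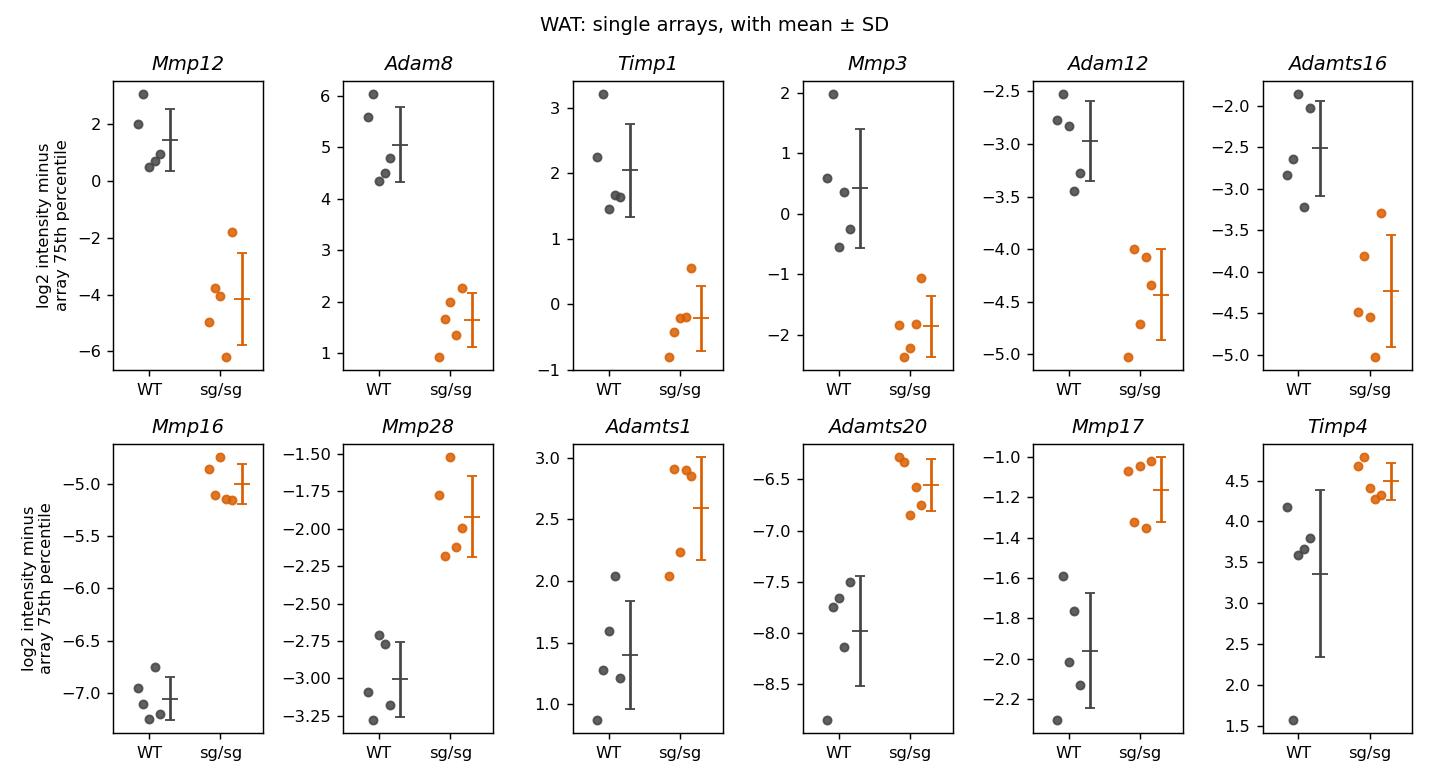
Single WAT arrays of 12 members (points, 5 WT in grey and 5 sg/sg in orange) with mean ± SD beside them, on the log2 scale relative to the array's 75th percentile and with an axis of its own in each panel. The groups do not overlap in any panel, and in the Timp4 panel WT replicate 2 lies apart at 1.57.

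Of the 4 inhibitors, 1 changed in WAT, beside 23% of all genes that were called. Timp1, a secreted inhibitor of most MMPs, read 2.25, 3.21, 1.45, 1.66 and 1.65 on the WT arrays and -0.80, -0.42, -0.20, -0.19 and 0.55 on the sg/sg arrays. No sg/sg array reached the WT range. Timp1 fell by 2.26 (SE 0.35, 4.78-fold lower, adjusted p = 0.00228) with probe A_52_P87713, by 2.51 (SE 0.37) with A_51_P512379 and by 2.69 (SE 0.41) with A_51_P512384, each without overlap. Timp2 (-0.03, SE 0.11, adjusted p = 0.896) and Timp3 (-0.15, SE 0.16, adjusted p = 0.551) did not pass the threshold.

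Timp4 read 4.18, 1.57, 3.59, 3.66 and 3.80 on the WT arrays and 4.68, 4.79, 4.41, 4.28 and 4.32 on the sg/sg arrays. The genotypes did not overlap, yet the spread from WT replicate 2 left the difference of 1.13 (SE 0.42, 2.19-fold) short of the threshold (adjusted p = 0.0807). Without WT replicate 2 it was 0.69 (adjusted p = 0.0173).

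Of the 9 broadly expressed ADAMs with an active protease site, 5 fell and 1 rose in WAT. Over all genes, 9.2% fell and 13.8% rose. Adam8 read 5.58, 6.03, 4.34, 4.50 and 4.79 on the WT arrays and 0.92, 1.66, 1.998, 1.36 and 2.27 on the sg/sg arrays. The gap between the groups was wider than the spread within either. Adam8 fell by 3.41 (SE 0.36, 10.6-fold lower, adjusted p = 0.000676), and by 3.52 with the normexp correction (adjusted p = 0.00599). Adam12, which is expressed in adipocyte precursors and muscle, read -2.77, -2.53, -2.83, -3.45 and -3.28 on the WT arrays and -5.02, -3.997, -4.71, -4.08 and -4.34 on the sg/sg arrays. It fell by 1.46 (SE 0.24, 2.75-fold lower, adjusted p = 0.0028) without overlap, and its second probe by 1.24 (adjusted p = 0.0276). With the normexp correction Adam12 stood at -0.27 (adjusted p = 0.739), and at -0.84 (adjusted p = 0.113) with that correction without sg/sg replicate 4.

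The sheddases had smaller differences. Adam17, the enzyme that releases TNF, read 1.29, 1.38, 1.13, 0.87 and 1.09 on the WT arrays and 0.42, 0.33, 0.66, 0.29 and 0.48 on the sg/sg arrays. The groups were separate, and the decrease was 0.72 (SE 0.12, 1.64-fold, adjusted p = 0.00302), with a second probe at -0.70. Adam10, the main sheddase of Notch receptors, was lower by 0.33 (SE 0.11, 1.26-fold, adjusted p = 0.0466) with overlap. Its call was lost whenever a WAT array other than sg/sg replicate 4 was left out (adjusted p up to 0.109). The normexp correction turned it to 0.46 (adjusted p = 0.467). Adam19, a relative of Adam12, fell by 0.75 (SE 0.12, 1.68-fold, adjusted p = 0.00256), and all 3 of its probes were called and without overlap.

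Adam33 was higher by 0.76 (SE 0.23, 1.7-fold, adjusted p = 0.0418), with overlap. Of its 3 probes another was also called (0.79, adjusted p = 0.0285) and one was not (0.68, adjusted p = 0.122). Its call was kept when WT replicate 5 or sg/sg replicate 4 or 5 was left out and lost without any other WAT array (adjusted p up to 0.0915). Adam9 (-0.04), Adam15 (0.15) and Adam28 (0.01) did not pass the threshold, nor did Adam11 (-0.05) and Adam23 (0.12), which lack an active site.

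Of 16 measured ADAMTS genes, 2 rose and 2 fell, beside 13.8% of all genes that rose and 9.2% that fell. Adamts1, a protease of versican and aggrecan, read 0.88, 1.28, 1.60, 2.04 and 1.21 on the WT arrays and 2.04, 2.91, 2.23, 2.90 and 2.85 on the sg/sg arrays. The highest WT array and the lowest sg/sg array were almost level. The increase was 1.19 (SE 0.25, 2.28-fold, adjusted p = 0.00871), and the second probe stood at 0.70 (SE 0.31, adjusted p = 0.138). Adamts20 rose by 1.42 (SE 0.25, 2.68-fold, adjusted p = 0.00349) without overlap, but 3 of 5 WT arrays had it above background and its other probe stood at 0.23 (adjusted p = 0.801). Adamts20 had an adjusted p of 0.227 with the normexp correction, and was at 0.80 (adjusted p = 0.151) with that correction without sg/sg replicate 4.

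Adamts16 read -2.83, -2.64, -1.86, -3.22 and -2.02 on the WT arrays and -4.49, -3.82, -4.54, -5.03 and -3.30 on the sg/sg arrays, a narrow gap without overlap. It fell by 1.72 (SE 0.36, 3.29-fold lower, adjusted p = 0.00819), and its dimmer probe, above background on 2 of 5 sg/sg arrays, stood at -0.83 (adjusted p = 0.0687). With the normexp correction without sg/sg replicate 4 Adamts16 was at -0.86 (adjusted p = 0.112). Adamts4, an aggrecanase, was lower by 0.55 (SE 0.17, 1.47-fold, adjusted p = 0.0379) with overlap, and its call was kept only without WT replicate 3 or sg/sg replicate 1 (adjusted p up to 0.0896 without another array). The normexp correction turned it to 0.11 (adjusted p = 0.824). Adamts5, the other main aggrecanase, did not pass the threshold (0.01, SE 0.18, adjusted p = 0.983).

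Adamts2, which removes the N-propeptide of fibrillar procollagens, showed how much a call rested on the probe. The brightest probe ran from 4.81 to 4.97 in WT and from 4.38 to 4.71 in sg/sg mice, a difference of -0.27 (SE 0.09, adjusted p = 0.0673) without overlap, which passed without sg/sg replicate 4 (-0.21, adjusted p = 0.04). Probe A_51_P164817 fell by 0.93 (SE 0.17, adjusted p = 0.00472). Probe A_52_P184042 read -3.31 on sg/sg replicate 4 and between -0.65 and -0.30 on the other sg/sg arrays, and probe A_52_P510592 stood at -0.09. Of the 26 genes with several measured probes in WAT, 5 had all probes called, 12 had none, and 9 had some, with no pair of called probes in opposite directions. Beside those named above, the latter held Adamts8 (0.39, adjusted p = 0.0598, and 0.52, adjusted p = 0.0253) and Adamts10 (0.13, 0.79 and 0.00, of which the second had an adjusted p of 0.035).

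Across the 19 called genes, 14 had genotypes without overlap, and the same 14 stayed past the threshold without any single array. The other 5 were Adam10, Adam1a, Adam33, Adamts4 and Mmp10. Over all WAT probes 21.9% were called and 20.8% had no overlap, and the share without overlap among all called probes was not taken. All 19 had the same direction within each of the 3 WAT slides, but these slides hold the very arrays that gave the calls. With slide as a fixed block 14 kept the call. Under normexp 6 kept it, namely Adam8, Adam17, Mmp12, Mmp17, Mmp28 and Timp1. In the fit of all 20 arrays Adam33 (adjusted p = 0.197), Adamts4 (0.259), Adam10 (0.0644) and Mmp28 lost the call, while Mmp14 (0.0216), Mmp19 (0.0135) and Timp4 (0.0192) gained one. Without WT replicate 2 and sg/sg replicate 4 together, a setting chosen after seeing the data, 17 of the 19 kept the call. Adamts4 (-0.46, adjusted p = 0.0907) and Mmp10 (-0.89, adjusted p = 0.0673) lost it, and 9 members were higher and 14 lower in all.

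The 13 measured ADAMs of the reproductive tract, most of them known from testis or epididymis, held 1 gene that rose and 1 that fell. These counts stand beside 13.8% of all genes that rose and 9.2% that fell. Of the 14 probes of these ADAMs, 11 were highest on WT replicate 2. Adam3, a sperm protein needed for fertilisation, read -0.91 there and between -5.30 and -3.80 on the other 9 WAT arrays, and Adam5 read -2.07 against -5.62 to -4.16. The summed level of testis and epididymis markers moved with them. The summed level of 11 measured markers of 17, on a scale where the array's 75th percentile is 1, was 0.395, 39.6, 2.10, 5.27 and 1.27 on the WT arrays and 0.366 to 0.725 on the sg/sg arrays. The protamine Prm2 read 3.93 and the sperm lactate dehydrogenase Ldhc 1.92 on WT replicate 2, and 8 of the 11 markers were highest there. Markers known from epididymis were mixed. Cst8 was highest on WT replicate 2 (-2.10), but Crisp1 was highest on WT replicate 5 (-0.47, against -2.34 on WT replicate 2). Lcn9 and Cst11 were highest on sg/sg arrays, and Rnase10 read -5.02 on WT replicate 2 and -5.10 on WT replicate 3. Lcn5, Lcn8, Rnase9, Spink12 and Defb12 did not pass the filter. WT replicate 4 had the second highest sum and the highest Adam7, an epididymal ADAM, at -3.45. Their part in the other differences was not tested, beyond the values without WT replicate 2.

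**Figure D3:**
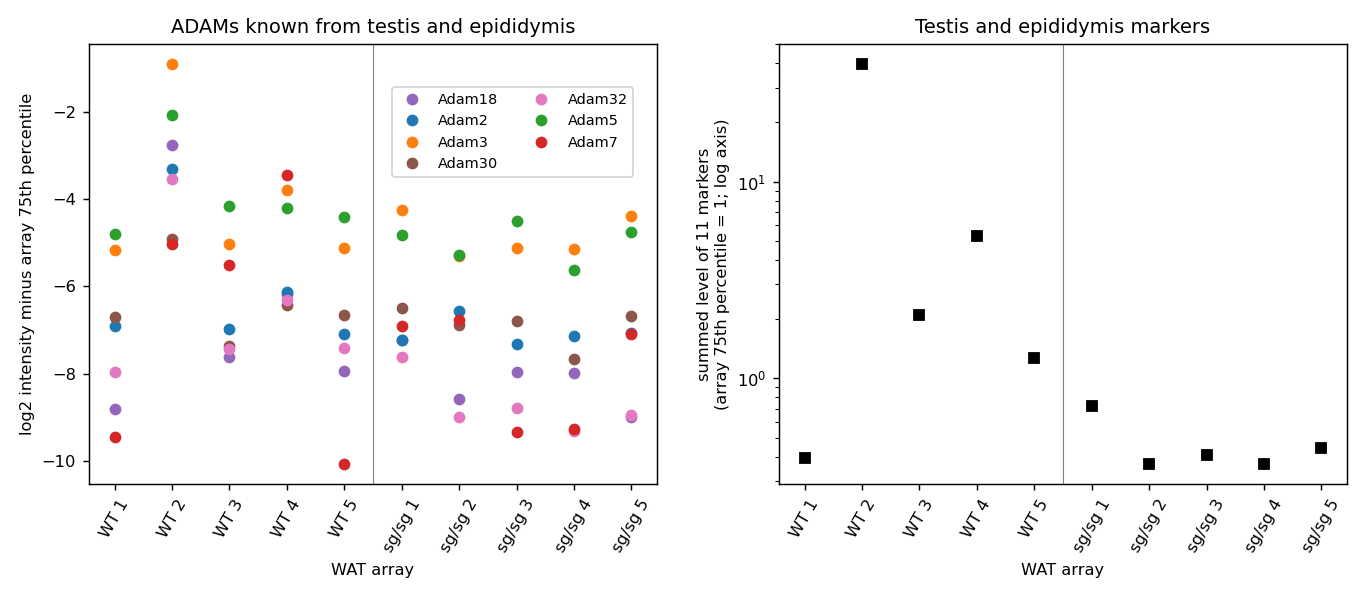
Left, log2 level of 7 ADAM genes known from testis and epididymis on each of the 10 WAT arrays, and right, the summed level of 11 markers of these tissues on a log axis. WT replicate 2 is highest for 6 of the 7 genes and for the marker sum (39.6), and WT replicate 4 is highest for Adam7.

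The called genes of this class were not those set by WT replicate 2. Adam1a, fertilin alpha, read -3.27, -2.42, -3.07, -3.11 and -2.88 on the WT arrays and -2.26, -2.39, -2.29, -1.70 and -2.75 on the sg/sg arrays, with overlap. It was higher by 0.67 (SE 0.21, 1.6-fold, adjusted p = 0.0442), and the call was kept without WT replicate 2 or sg/sg replicate 5 and lost without any other array (adjusted p up to 0.101). Adam4 fell by 0.70 (SE 0.13, 1.62-fold, adjusted p = 0.00499) without overlap. With the normexp correction Adam4 turned to 0.53 (adjusted p = 0.496), and with that correction without sg/sg replicate 4 it was at -0.07 (adjusted p = 0.857). Adam32 was above background on 4 WT arrays and on no sg/sg array, at least 2.5-fold higher in WT mice, and did not pass the threshold (adjusted p = 0.0603). WT replicate 2 read -3.55 and the other WT arrays -7.95 to -6.30, and without that array Adam32 was at least 1.49-fold higher (adjusted p = 0.0317), with 3 of 4 WT arrays above background.

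Markers of macrophages fell with Mmp12, Adam8 and Timp1. Of 23 measured macrophage markers, 16 were lower and none higher in WAT of sg/sg mice, and their summed level was 467, 565, 329, 311 and 345 on the WT arrays against 193 to 256 on the sg/sg arrays. The dendritic and macrophage integrin Itgax stood at -3.50 (adjusted p = 0.000768), Lgals3 at -2.04 and Mpeg1 at -2.03. Neutrophil markers fell in 4 of 10 cases, with S100a8 at -2.96, and fibroblast markers in 5 of 12, with Col1a1 at -0.84. None of 12 endothelial markers was called, 4 of 9 mesothelial markers were higher, and of 11 adipocyte markers 5 were higher and 1 lower. Of 9 skeletal muscle markers 1 was higher and 2 lower, and their summed level was 2.77 to 5.76 on the WT arrays, 7.73 to 11.3 on 4 sg/sg arrays and 2.42 on sg/sg replicate 4. The part of these cells in the differences of the proteases was not tested. The marker counts stand beside 13.8% of all genes that rose and 9.2% that fell.

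The partners of the proteases were counted from lists chosen for this purpose. Of 30 genes of the plasminogen system and other regulators, 3 rose and 5 fell in WAT, with a median of -0.12. Cd44, which docks MMPs at the cell surface, fell by 1.82 and the procollagen enhancer Pcolce2 by 1.75. The MMP inhibitor Reck rose by 0.45 (adjusted p = 0.0328). Of 29 matrix substrates, 15 fell and 3 rose (median -0.48), among them tenascin Tnc at -0.98 and the basement membrane collagens Col4a1 at -0.75 and Col4a2 at -0.68.

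Of 25 shedding substrates, 5 fell and 2 rose (median -0.28). Tnf fell by 1.56 (SE 0.16, 2.95-fold lower, adjusted p = 0.000655) and its receptor Tnfrsf1b by 1.33. Of 12 astacin and ADAMTS-like relatives, the procollagen C-proteinase Bmp1 fell by 0.82 (adjusted p = 0.00169) and Adamtsl1 rose by 0.82 (adjusted p = 0.00768). All these counts stand beside the 13.8% of genes that rose and 9.2% that fell.

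In liver, 3 of 37 member genes were called, 2 higher and 1 lower (8.11%, against 15.3% of all genes, of which 8.66% rose and 6.68% fell). The median log2 difference was 0.14, against 0.05 over all genes. Over all liver probes 1999 were higher and 1602 lower, which became 865 and 2291 with median scaling and 0 and 3 with slide as a fixed block. Adamts7, which cuts cartilage oligomeric matrix protein, read -0.94, -1.71, -1.84, -1.37 and -1.19 on the WT arrays and -0.20, -0.14, 0.30, -0.45 and -0.16 on the sg/sg arrays. Every sg/sg array was above every WT array. Adamts7 rose by 1.28 (SE 0.19, 2.43-fold, adjusted p = 0.00607), and by 1.52 (SE 0.21, 2.87-fold, adjusted p = 0.00488) with its second probe. Within the slide that held both genotypes the difference was 1.18 (1 WT against 3 sg/sg arrays, adjusted p = 0.525), and with slide as a random block it was 1.26 (adjusted p = 0.0101).

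Timp1 in liver read 1.23, 0.97, 1.03, 1.05 and 1.63 on the WT arrays and 1.76, 1.84, 1.60, 1.80 and 2.05 on the sg/sg arrays. WT replicate 5 lay just above sg/sg replicate 3, both on the shared slide. The increase was 0.63 (SE 0.14, 1.54-fold, adjusted p = 0.0186). It was 0.10 within the shared slide (adjusted p = 0.912) and 0.59 (adjusted p = 0.0529) without WT replicate 4, and a fit of all 20 arrays gave an adjusted p of 0.139, so that genotype and slide cannot be told apart for this gene. The other Timp1 probes were dim in liver, where A_51_P512384 was above background on 3 WT and 3 sg/sg arrays and stood at -0.44 (adjusted p = 0.687), and A_51_P512379 on 1 WT array only.

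**Figure D4:**
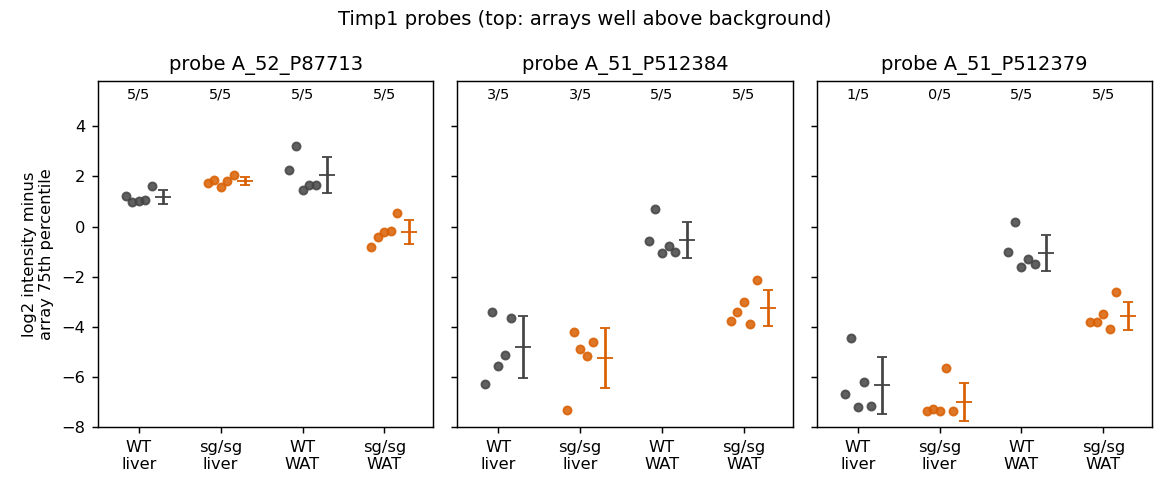
Log2 level of the 3 Timp1 probes on single arrays of the 4 groups (points, with mean ± SD), relative to the array's 75th percentile, with the number of arrays well above background at the top. All 3 probes are lower in sg/sg WAT than in WT WAT on every array, and only A_52_P87713 is above background on all liver arrays.

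Adam10 in liver was lower by 0.53 (SE 0.14, 1.44-fold, adjusted p = 0.0343) without overlap, but by 0.30 within the shared slide (adjusted p = 0.831) and by 0.51 with slide as a random block (adjusted p = 0.0555). Its call was lost without WT replicate 1, 2, 3 or 4 or sg/sg replicate 3 or 5 (adjusted p up to 0.0776). Probes of the same gene differed in call for Adam17 (0.06, adjusted p = 0.725, and 0.47, adjusted p = 0.0174) and Adamts10 (0.36 and 0.50, the latter with an adjusted p of 0.0386). Adam8 stood at -1.05 (SE 0.36, adjusted p = 0.0747), and at -0.74 without WT replicate 2. That array read -1.56, against -3.27 to -2.82 on the other WT arrays. Timp2 (0.08), Timp3 (-0.26), Mmp2 (0.26), Mmp14 (0.07), Adamts1 (0.04) and Adamts5 (0.25) did not pass the threshold, nor did Mmp13 (-1.18, adjusted p = 0.134). Mmp13 stood at -0.79 without WT replicate 2, which read -3.06 against -5.45 to -4.73 on the other WT arrays. WT replicate 2 is the WT liver array with the highest sum of adipocyte markers.

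In liver, the counts of the partner lists stand beside 8.66% of all genes that rose and 6.68% that fell. Of 26 measured regulators, the protease trap A2m rose by 1.10 (adjusted p = 0.0265) and the tetraspanin Cd9 fell by 0.47. Of 25 matrix substrates, vitronectin Vtn rose by 0.37 (adjusted p = 0.036) and no other was called. Their median log2 difference was 0.003. The summed level of these substrates, on the scale where the 75th percentile is 1, was 395 to 459 on the WT arrays and 480 to 579 on the sg/sg arrays. Of 22 shedding substrates 4 rose, among them Icam1 at 0.65, Erbb4 at 0.71 and Tgfa at 0.31. Of 7 astacin and ADAMTS-like relatives 3 rose, namely Adamtsl5, Mep1a and Mep1b. Macrophage markers were higher in 5 of 21 cases, with C1qa at 0.80, endothelial markers in 4 of 12, with Egfl7 at 0.57, and hepatocyte markers in 4 of 11, with Tat at 0.88. Adipocyte markers were lower in 3 of 7 cases, with Cfd at -6.32, and their summed level had a median of 20.7 on the WT and 9.71 on the sg/sg liver arrays, without overlap. The part of these cells in the liver differences of the proteases was not tested.

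The genotype difference itself differed between the tissues for 9 of the 37 members measured in both (24.3%, against 20.8% of all genes), 8 with a lower and 1 with a higher value in WAT than in liver, beside 9.6% and 11.2% of all genes. Over all probes 2550 were higher and 2284 lower, and with median scaling 2892 and 1533. Timp1 had the smallest p, with a difference of the differences of -2.88 (SE 0.39, limma adjusted p = 7.96e-05), from 0.63 in liver to -2.26 in WAT. With slide as a fixed block it was -2.37 (adjusted p = 0.0475), and of all 9 only Timp1 and Adam17 kept the call. Adamts7 stood at -1.41 (adjusted p = 0.00101), as it was higher in sg/sg liver and near 0 (-0.13) in WAT. Adam8 stood at -2.36 (SE 0.54, adjusted p = 0.00453), Adam17 at -0.78 (adjusted p = 0.00217) and Adamts1 at 1.15 (SE 0.27, adjusted p = 0.00632).

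Mmp19 (-0.77, adjusted p = 0.0393), Adam19 (-1.02, adjusted p = 0.0399), Mmp11 (-1.03, adjusted p = 0.0399) and Mmp25 (-1.26, adjusted p = 0.045) were nearer the threshold. Mmp19 lost the call without any of 13 single arrays (adjusted p up to 0.076) and Adam19 without any of 12 (adjusted p up to 0.078). Over single arrays left out, the count with a lower value in WAT ran from 4 to 9, the lowest of these without WT WAT replicate 1 or sg/sg WAT replicate 1. Timp1, Adamts7, Adam8, Adam17 and Adamts1 kept it without each of the 20 arrays.

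**Figure D5:**
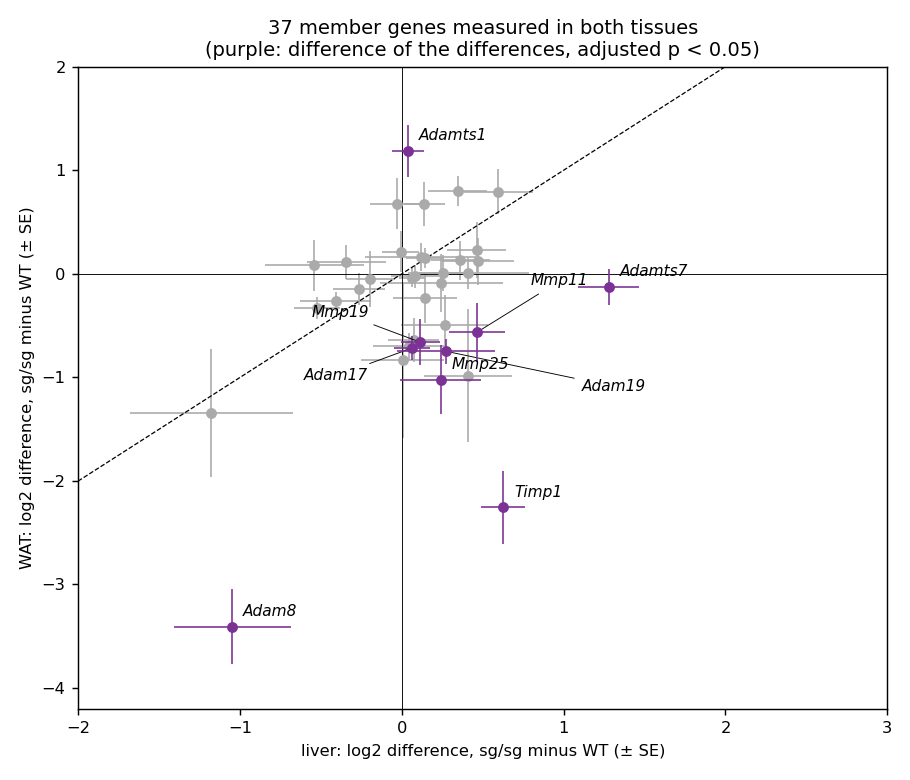
Log2 difference of sg/sg minus WT in WAT against that in liver (± SE) for the 37 members measured in both tissues, for the probe with the highest mean over both. Purple marks the 9 genes whose differences differ between tissues (limma adjusted p under 0.05) and the dashed line equality, with Timp1 at 0.63 in liver and -2.26 in WAT.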

How the data were processed

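Intensities of 20 one-colour Agilent arrays, 5 per group, were used as deposited. Per the file headers and the submitters' processing notes, the authors extracted them with Agilent Feature Extraction 9.5, which subtracted background and detrended each spot and replaced signals not above background by surrogates. The processed signal was taken as log2 and centred on each array's 75th percentile, control spots were left out, outlier spots were set missing (6 member values), and spots of a probe were averaged. Probes well above background on at least 4 arrays of a tissue and missing on at most 2 were tested with limma 3.58.1 (R 4.3.3), per tissue, and with all 20 arrays for tissue and interaction contrasts. Benjamini-Hochberg adjustment ran over all tested probes, with a threshold of 0.05. A gene is given by its probe with the highest mean in the tissue, or over both for the tissue contrasts, and "all genes" means the brightest probe of each gene name. The deposited value table held the same signals.

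The members and lists were chosen with earlier results of these data known. Named genes were all Timp genes, 11 preset genes, called members, the 6 smallest interaction p, genes whose probes differ in call in WAT, and up to 3 genes per list (1 of these is not reported here), and further members were named after their values were seen. RefSeq symbols matched 96 of 123 member probes, and the reference tables held no mm7 annotation, so exons and UTRs are not given. The series' design names 5 mice per genotype, as many as the arrays of a group, but no label ties an array to a mouse. On simulated data with 100 probes changed by 1 on the log2 scale and 100 by 2, limma recovered 61% of the former in WAT and 87% in liver. The data themselves had far more called probes, 7083 in WAT and 3601 in liver. The simulated shares therefore do not give the power of the tests reported here.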

Additional observations from a re-analysis of the deposited data

Results flagged for a closer look

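Among 104 groups of 5 arrays looked at for the named members, 10 had an array far from the other 4 by Dixon's test, and chance flags about 1 in 20 groups. WT WAT replicate 2 was the distant array for Timp4 (1.57) and Adamts5 (3.97), lower than the rest in both cases. It is also the array with the transcripts known from testis. In WT WAT, Adamts4 was low on replicate 3 (-2.74). In sg/sg WAT, Mmp9 was high (2.43) and Timp3 low (3.85) on replicate 3, and Mmp19 was high on replicate 4 (-0.47), the array with low 5′ probes. In WT liver, Adam8 (-1.56) and Adamts2 (1.88) were high on replicate 2 and Mmp14 (2.30) on replicate 4. In sg/sg liver, Adamts1 was low on replicate 1 (0.37).

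The genotype difference differed between WAT and liver, by the interaction term of limma, for 7 of the named members. The difference of WAT minus liver was -2.88 for Timp1, -2.36 for Adam8, -1.41 for Adamts7, -1.02 for Adam19, -0.78 for Adam17, -0.77 for Mmp19 and 1.15 for Adamts1. Timp1 was the one of these with called genotype differences of opposite direction in the tissues, 0.63 in liver and -2.26 in WAT. Its liver value was 0.10 within the one slide that held both genotypes, so genotype and slide cannot be told apart there.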

How the results depend on the processing

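In liver (2 members higher, 1 lower), normexp background correction gave 4 and 0, no filter on dim probes 0 lower, slide as a fixed block and the fit within slide 2 both 0 and 0, and slide as a random block 0 lower. In WAT (7 higher, 12 lower), normexp gave 2 and 4. Under normexp alone 4 genes changed sign, none of them past the threshold: Adam10 (0.46), Adam4 (0.53), Adamts4 (0.11) and Mmp10 (0.88). Of the 19 called genes, 6 kept the call. This correction left sg/sg replicate 4 with no member below -0.73, against -5.34 to -4.85 on 8 WAT arrays and -2.98 on sg/sg replicate 2. In a setting chosen after seeing the data, normexp without that array, 5 were higher and 7 lower, 11 of the 19 kept the call, and Mmp10 was at 0.17. The fit within slide 4 gave 0 and 0. All 19 kept their direction within slides 4, 5 and 6, which hold the very arrays that gave the calls. For the difference between tissues (1 higher, 8 lower), normexp gave 4 lower, median scaling and quantile normalization 5 lower each, no filter 2 higher, and slide as a fixed block 0 higher and 2 lower. For WT tissues (38 higher, 7 lower), no filter gave 13 lower. Leaving out single arrays gave 1 to 5 higher and 0 to 1 lower in liver, 5 to 7 and 9 to 12 in WAT, 1 to 2 and 4 to 9 for the difference between tissues, and 35 to 39 and 7 to 9 for WT tissues.

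Median scaling moved the median of all liver probes by -0.10. Over all WAT probes normexp gave 776 higher and 716 lower against 4129 and 2954. The deposited value table and kept outlier spots left each member count within 1.5 times. The replicate numbers of the labels did not pair the arrays (correlations of same-numbered deviations from -0.14 to 0.17). With the replicate number as a block 5 members were higher and 9 lower in WAT. Members above background on only some arrays of a group are limited by their signal, and the number of arrays limits precision.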
